A study of Mus musculus with 6 samples.

Results

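The SOCS feedback inhibitors and the PIM kinases were examined as a group of 10 genes, namely Socs1 to Socs7, Cish, Pim1 and Pim2, of 14994 genes tested. They were chosen by name, and each was represented by the probeset carrying its symbol alone that had the highest mean over the arrays. All 10 had such a probeset, and all 10 passed the filter on dim probesets. Expression was measured in mouse bone marrow cells of the KSL SLAM phenotype, a fraction rich in blood stem cells, with 6 MoGene 1.0 ST arrays. The cells were sorted as Lineage-, c-Kit+, Sca-1+, CD150+, CD48- and CD41-. The 3 treated arrays came from mice given G-CSF (granulocyte colony-stimulating factor) for 7 days, at 125 mcg/kg by subcutaneous injection 2 times a day, and the 3 control arrays from mice given PBS (the study's saline control) for 7 days. Each array was hybridised with RNA pooled from 5 to 10 mice, so the spread between arrays is that between pools. The sources used here do not give strain, genotype, sex or age.

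Cytokine receptors such as the G-CSF receptor lack a kinase of their own and signal through JAK kinases, which phosphorylate STAT transcription factors. STAT proteins then switch on genes of the SOCS family, whose proteins bind activated receptors or JAKs through an SH2 domain and recruit a ubiquitin ligase through a C-terminal SOCS box, so that the signal is limited. PIM kinases are serine/threonine kinases that are active without an activating phosphorylation, so their amount largely sets their activity, and they are known to promote survival and growth of blood cells downstream of STAT3 and STAT5. In granulocytic cells SOCS3 is known as the main brake on G-CSF receptor signalling. The comparison asked whether transcripts of these inhibitors and kinases differed in the stem cell fraction after 7 days of G-CSF.

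STAT proteins are known to bind the palindrome TTCNNNGAA, which reads the same on both strands, so the promoter windows of the members were searched for it. The sequences are RefSeq's (GRCm38.p6) and cover 250 bases before to 50 after an annotated start. Windows were at hand for 6 of the 10 members, with 2 for Pim1. Socs2, Socs5, Socs6 and Socs7 were not searched here. Cish and Socs3 held the motif, and they are shown because they are the members whose windows carry the letters through which STAT factors are known to act. Capitals mark the motif, and both sequences are written 5′ to 3′ on the gene's strand. The Cish stretch lies at chr9:107296655-107296682 on the plus strand and the Socs3 stretch at chr11:117969502-117969530 on the minus strand.
Cish: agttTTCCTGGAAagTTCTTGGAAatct
Socs3: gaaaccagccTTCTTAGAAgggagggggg

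The pair of Cish motifs did not overlap and occupied bases 1 to 9 and 12 to 20, counted from the start as base 1. The Socs3 motif occupied bases -154 to -146. The windows of Socs1, Socs4, Pim1 and Pim2 held no match to these letters. At least 1 match was present in 8.3% of all 32851 windows, and at least 2 were present in 0.457%, as in Cish. A match is a description of the sequence and does not show that a factor was bound. The median log2 difference between G-CSF and PBS was -0.01 over 980 tested genes with the motif and 0.00 over 10890 tested genes with a window that lacked it.

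The deposited intensities had medians of 56.2 to 61.7 per array. Here they are given as log2 values, and a difference is always G-CSF minus PBS. Of the sort markers, Kit was at 9.85 to 10.28 with PBS and at 8.63 to 9.28 with G-CSF (difference -0.98, limma adjusted p = 0.374), Slamf1 (CD150) was at 5.95 to 6.65 over the 6 arrays, and the Sca-1 gene Ly6a had no probeset with a single symbol. The samples are bulk RNA, in which fewer cells of a type and less RNA per cell cannot be told apart. Markers of mature neutrophils moved with the treatment. In 19 of 20 measured markers the lowest G-CSF array exceeded the highest PBS array, and the exception was Ly6g (difference -0.19). Over all genes 5.77% were separated upwards and 5.05% downwards. The marker lists were chosen with earlier results of these data known, so counts from them are not independent of the data. The neutrophil list's mean level was 7.20 to 7.88 with PBS and 9.12 to 9.77 with G-CSF (summed intensity 10281 to 17976 and 32260 to 41878). No measured background was available for these markers, and S100a8 had a mean of 12.08 already with PBS. Of 11 granulocyte-monocyte progenitor markers 10 were separated in the same direction, with list means of 6.61 to 7.04 and 7.83 to 8.75. Of 8 monocyte markers 5 were separated upwards (list means 6.25 to 6.88 and 6.86 to 7.13). Of 14 blood stem cell markers 12 had negative differences and 3 were separated downwards (list means 7.82 to 7.96 and 7.37 to 7.78). Of 9 megakaryocyte and platelet markers 7 had negative differences, 2 were separated upwards and 2 downwards (list means 6.48 to 6.68 and 6.03 to 6.16). Their differences ran from -1.92 (Pf4) to 0.45 (Itgb3). None of these markers passed after adjustment, and the part of these cells in the results below was not tested.

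None of the 10 members passed the threshold. By limma with Benjamini-Hochberg adjustment over all 14994 genes, the smallest adjusted p of a member was 0.723, for Socs3. Of all genes tested, 0.0267% (4 genes) were called higher at an adjusted p under 0.05 and 0% lower. At an unadjusted p under 0.05 there was 1 member of 10, Socs3, against 6.04% of all genes. The groups did not overlap in 1 member, again Socs3, with the G-CSF arrays above. Over all genes 5.77% were separated upwards and 5.05% downwards, so 1 of 10 members was close to the background share. Of the members, 5 differences were positive and 5 negative. The median difference was 0.03 over the members and 0.00 over all genes, and the median size of a difference regardless of sign was 0.25 and 0.16. The median SE was also larger for the members, at 0.29 against 0.21 over all genes.

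**Figure D1:**
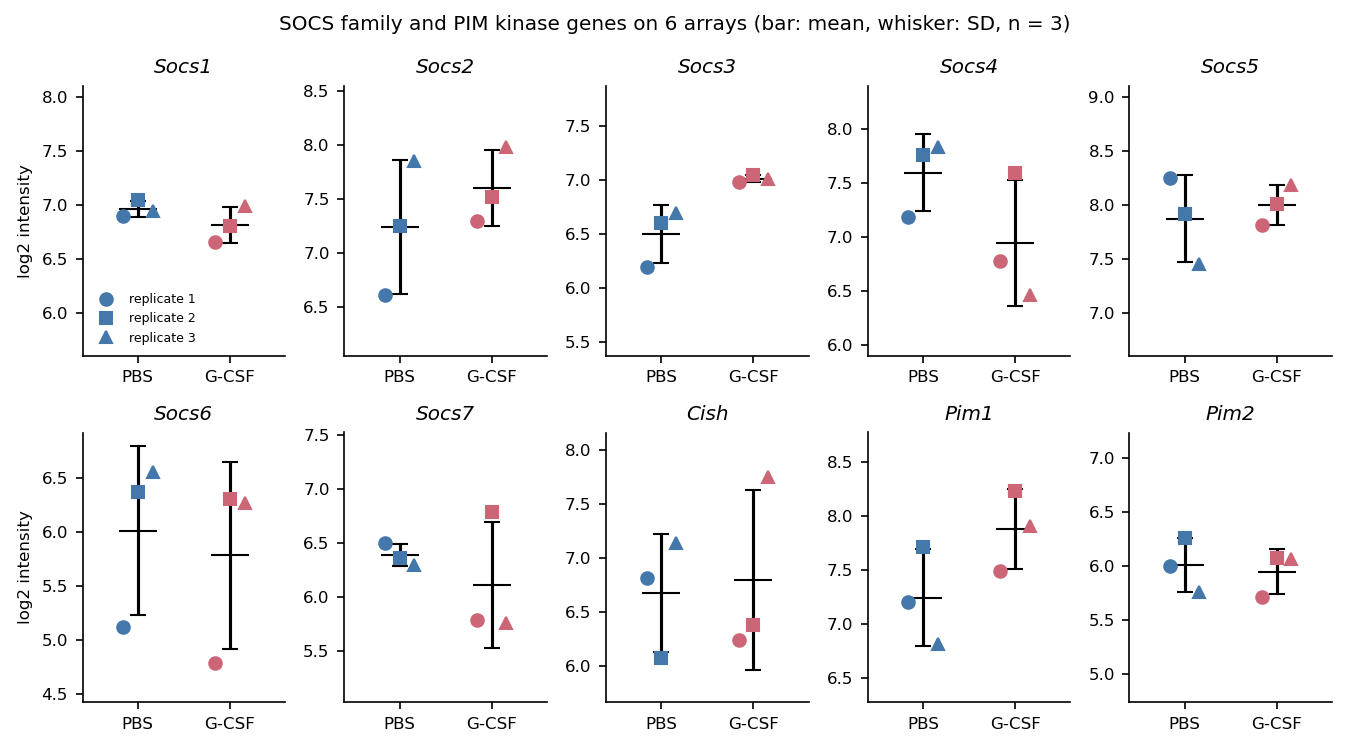
Log2 intensity (vertical axis, the same span of log2 units in each panel but a different origin) of the 10 members on 3 PBS arrays (blue) and 3 G-CSF arrays (red), with symbols for the replicate number, a bar for the mean and a whisker for the SD. Socs3 has all G-CSF points (6.99 to 7.05) above all PBS points (6.20 to 6.70), and in the other members the groups overlap.

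Socs3, the inhibitor that docks on the G-CSF receptor, had log2 values of 6.20, 6.61 and 6.70 on PBS replicates 1, 2 and 3 and of 6.99, 7.05 and 7.01 on G-CSF replicates 1, 2 and 3. The treated arrays were nearly identical, while PBS replicate 1 lay well below the other control arrays. The mean went from 6.50 ± 0.27 to 7.02 ± 0.03 (SD, n = 3 per group). The difference was 0.52 (SE 0.18, limma 95% interval 0.10 to 0.94), or 1.43-fold (interval 1.07 to 1.91), and it did not pass (unadjusted p = 0.0224, adjusted p = 0.723). The difference was 0.36 without PBS replicate 1, and the unadjusted p was above 0.05 without that array (0.0686) and without either the second or the third G-CSF array (0.0563 and 0.0528). A further Socs3 probeset (10383010), annotated with 1 sequence record where the one used (10393449) has 3, was dimmer, at 5.63 to 5.99 over all arrays. It differed by -0.01 (SE 0.16), so the higher values with G-CSF were seen with 1 of the 2 Socs3 probesets.

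Cish, the founding member of the family and a classical STAT5 target, was at 6.81, 6.07 and 7.14 on the PBS arrays and at 6.24, 6.38 and 7.75 on the G-CSF arrays. Replicate 3 was the highest of each group, and the arrays of a group were further apart than the group means. The difference was 0.11 (SE 0.45, interval -0.94 to 1.17, adjusted p = 0.999). It was -0.36 without G-CSF replicate 3 and -0.19 without PBS replicate 2, so it has no settled direction.

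Socs1, which inhibits JAKs after interferon signalling, was at 6.90, 7.05 and 6.95 with PBS and at 6.66, 6.81 and 6.99 with G-CSF. It varied least of the 10 members over the 6 arrays, and 1 treated array lay among the controls. The difference was -0.15 (SE 0.16), with an interval of -0.52 to 0.22 that corresponds to 0.699-fold to 1.16-fold. Socs2, known to restrain growth hormone signalling through STAT5, was at 6.61, 7.25 and 7.85 with PBS and at 7.29, 7.52 and 7.98 with G-CSF. In both groups replicate 1 was the lowest and replicate 3 the highest array. The difference of 0.36 (SE 0.33, interval -0.42 to 1.14, adjusted p = 0.966) was 0.05 without PBS replicate 1 and 0.66 without PBS replicate 3. The other Socs2 probeset (10372069) differed by 0.15 (SE 0.20), with values of 7.08, 7.08 and 7.58 against 7.23, 7.40 and 7.55.

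The members with longer N-terminal regions, Socs4 to Socs7, act mainly on receptor tyrosine kinases and their adaptors, and 3 of these 4 had negative differences. Socs4, which with Socs5 is known to act on the EGF receptor, was at 7.18, 7.76 and 7.83 with PBS and at 6.77, 7.59 and 6.46 with G-CSF. The treated arrays with replicate numbers 1 and 3 lay below all controls, and G-CSF replicate 2 lay among them. The difference of -0.65 (SE 0.32, interval -1.41 to 0.11, adjusted p = 0.868) was the largest negative one among the members. Without G-CSF replicate 2 it was -0.97 (unadjusted p = 0.00809, adjusted p = 0.553), and without G-CSF replicate 3 it was -0.41. Socs7, a partner of the adaptor NCK, was at 6.50, 6.36 and 6.30 with PBS and at 5.79, 6.79 and 5.76 with G-CSF. Here G-CSF replicate 2 lay above all controls and the other treated arrays below them. The difference was -0.27 (SE 0.29, adjusted p = 0.966), and -0.61 without G-CSF replicate 2 (unadjusted p = 0.0111, adjusted p = 0.611). On the array in question, G-CSF replicate 2, the mature neutrophil and progenitor lists had their highest means (9.77 and 8.75). Of the treated arrays it was also the highest for the blood stem cell list (7.78). For the monocyte list it was not (6.91, against 7.13 on G-CSF replicate 3). A link between these lists and Socs4 or Socs7 was not tested.

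Socs5 was at 8.25, 7.91 and 7.45 with PBS and at 7.81, 8.01 and 8.18 with G-CSF. All treated arrays fell inside the range of the controls, and the difference was 0.13 (SE 0.23, interval -0.42 to 0.68). Socs6, which is known to bind the stem cell factor receptor KIT, was at 5.12, 6.37 and 6.56 with PBS and at 4.79, 6.31 and 6.27 with G-CSF. Replicate 1 was the low array in both groups, by more than 1 log2 unit, and the remaining 4 arrays lay close together. The difference was -0.22 (SE 0.52, interval -1.44 to 1.00). A second Socs6 probeset (10566668), annotated with the same records, did not show the low replicate 1 arrays. It read 5.76, 6.06 and 5.67 with PBS and 5.88, 5.69 and 5.96 with G-CSF, and differed by 0.01 (SE 0.17). Another (10460116) had a mean of 3.58, under the filter's limit of 5.152, and differed by -0.32 (SE 0.24).

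Pim1, a STAT-induced kinase gene, had the largest positive difference of the 10 members. It was at 7.20, 7.71 and 6.81 on the PBS arrays and at 7.49, 8.23 and 7.90 on the G-CSF arrays. The groups overlapped because PBS replicate 2 lay above G-CSF replicate 1. In each group replicate 2 was the highest array, for Pim1 as for the mean of the mature neutrophil markers (7.88 with PBS, 9.77 with G-CSF). The lowest PBS array was replicate 3 for Pim1 and replicate 1 for the marker mean, and the lowest G-CSF array was replicate 1 for both. The progenitor list's mean was lowest on PBS replicate 2 (6.61) and highest on PBS replicate 3 (7.04). With G-CSF it was highest on replicate 2 (8.75). Whether Pim1 followed either list was not tested. The Pim1 mean went from 7.24 ± 0.45 to 7.87 ± 0.37, a difference of 0.64 (SE 0.28, interval -0.03 to 1.31), or 1.55-fold, which did not pass (unadjusted p = 0.0596, adjusted p = 0.853). It was 0.87 without PBS replicate 2 (unadjusted p = 0.0179), 0.83 without G-CSF replicate 1 (unadjusted p = 0.0296) and 0.42 without PBS replicate 3. Pim2, a second kinase of the family, was at 6.0, 6.26 and 5.76 with PBS and at 5.71, 6.07 and 6.06 with G-CSF. Its difference was -0.06 (SE 0.19, interval -0.51 to 0.40), and it turned to 0.07 without PBS replicate 2. Pim3, which the member list does not include, differed by 0.17 (SE 0.18).

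**Figure D2:**
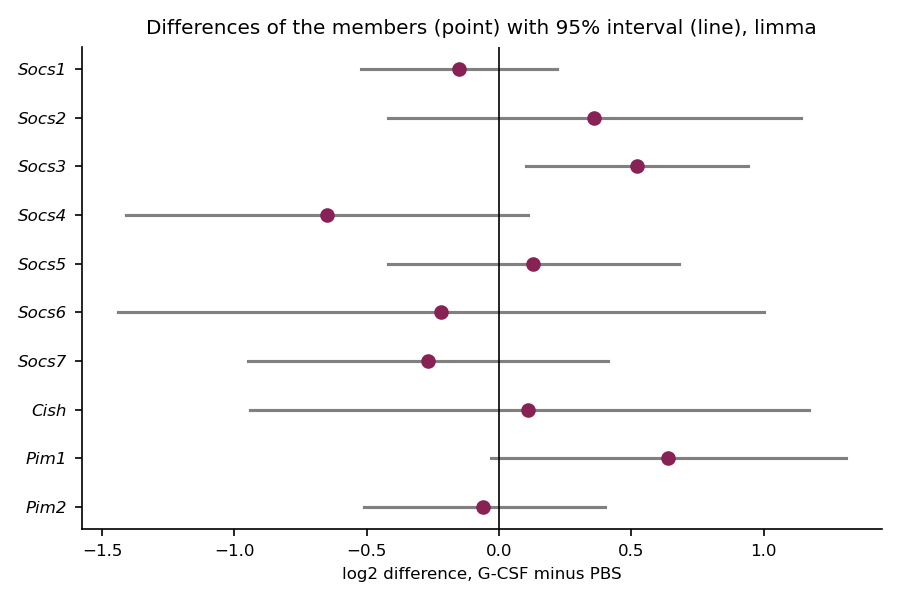
Log2 difference between G-CSF and PBS arrays (points, horizontal axis) with limma's 95% interval (lines) for each member. The Socs3 interval (0.10 to 0.94) lies above 0 before adjustment for multiple tests, and the intervals of the other 9 members contain 0.

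The intervals, from the fit that does not pair arrays by replicate number, also give the sizes of change that the arrays leave possible. For 5 members (Socs1, Socs3, Socs5, Socs7 and Pim2) the unadjusted 95% interval lay within 1 log2 unit of 0, that is within a doubling or halving. For the other 5 it reached 1 log2 unit on at least 1 side, so a change of that size in that direction was not excluded. This was a doubling for Socs2, Cish and Pim1 and a halving for Socs4, while the Socs6 interval ran from -1.44 to 1.00.

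**Figure D3:**
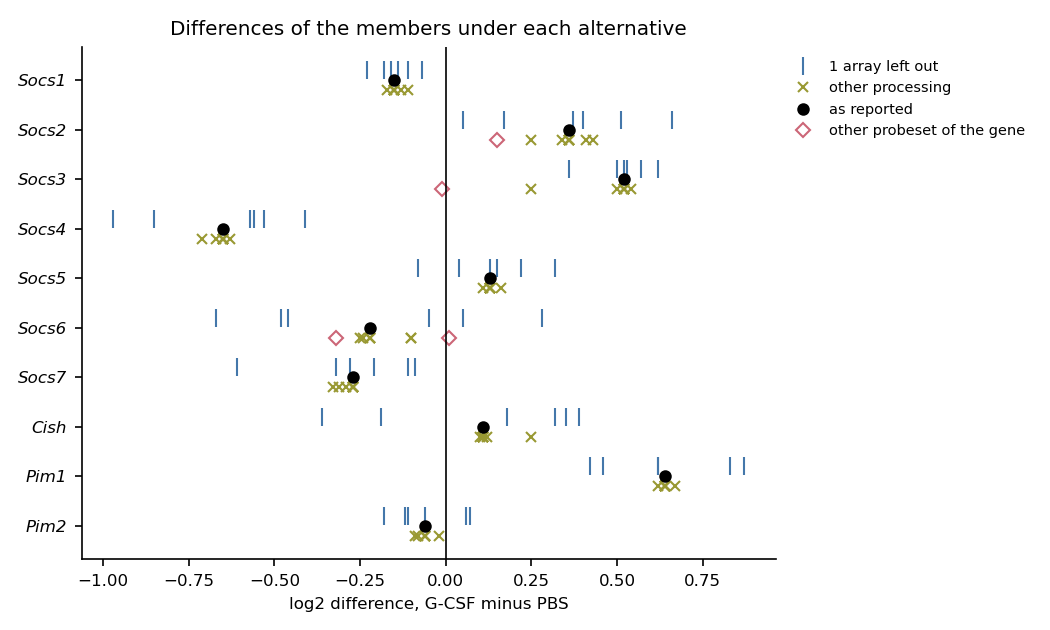
Log2 difference between G-CSF and PBS (horizontal axis) for each member as reported (black), with 1 array left out (blue), with other processing (crosses) and with the gene's other probesets (open diamonds). Socs1, Socs2, Socs3, Socs4, Socs7 and Pim1 keep their sign with each array left out, while Socs5, Socs6, Cish and Pim2 change sign.

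Genes whose array profiles were closest to 4 of the members were sought. Distance was the root mean square difference over the 6 arrays between log2 values centred on each gene's own mean. Symbols of predicted genes, clone names and small RNAs were passed over. For Socs3 the closest genes were the transcription factor gene Zbtb7b (0.058 log2 units), Endod1 (0.066) and the deubiquitinase gene Usp7 (0.069). Their low PBS replicate 1, separated groups and differences (0.57, 0.50 and 0.45) resemble Socs3 because they were picked for its profile. For Socs2 they were the lipid transfer protein gene Pitpna (0.054), Alyref2 (0.056) and the cytokine gene Il4 (0.097). The Pim1 profile was nearest to Poldip3 (0.096), the unfolded protein response factor Xbp1 (0.129) and Mmachc (0.155), and that of Cish to the RNA polymerase subunit gene Polr1d (0.148), the pyruvate carrier gene Mpc1 (0.168) and Rnf34 (0.173).

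Upstream of the members are the cytokine receptors. Of 17 measured receptors of the JAK-STAT pathway, 13 had positive differences against 50.3% of all genes. In 6 the groups were separated upwards, against 5.77% of all genes. The median was 0.26, and the median size regardless of sign was 0.44. After adjustment 0 of the 17 passed by limma, and 6 had an unadjusted p under 0.05, against 6.04% of all genes. Csf3r, the G-CSF receptor gene, was at 6.62, 6.56 and 6.65 with PBS and at 7.91, 9.09 and 7.34 with G-CSF (difference 1.51, SE 0.41, adjusted p = 0.477). Csf3r is also on the neutrophil marker list. The SD over the treated arrays was 0.89 for Csf3r and 0.03 for Socs3. Over the neutrophil markers this SD ran from 0.05 (Padi4) to 0.89. Whether Socs3 followed the neutrophil markers was not tested. Csf2rb2 and Csf2rb, the beta subunits for IL-3 and related cytokines, differed by 1.18 (SE 0.14, adjusted p = 0.0769) and 1.00 (SE 0.24). They are near-identical genes whose probesets may share signal. Il4ra differed by 1.02 (SE 0.25).

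Among 9 measured JAK kinases and STAT factors 3 differences were positive and 6 negative, with a median of -0.10 (-0.16 without PBS replicate 2, -0.04 without G-CSF replicate 1), 0 passed and 2 had an unadjusted p under 0.05. Stat3, the factor that G-CSF chiefly activates, was at 8.08, 7.87 and 7.53 with PBS and at 8.70, 8.94 and 8.56 with G-CSF, with no overlap (difference 0.91, SE 0.20, adjusted p = 0.325). Stat4 was separated in the other direction, at 8.43 to 8.91 with PBS and 6.91 to 8.07 with G-CSF (difference -1.09, SE 0.32, adjusted p = 0.535). Stat5a (-0.10, SE 0.18), Stat5b (-0.09, SE 0.18), Jak2 (-0.31, SE 0.25) and Stat6 (0.31, SE 0.21) overlapped between groups.

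**Figure D4:**
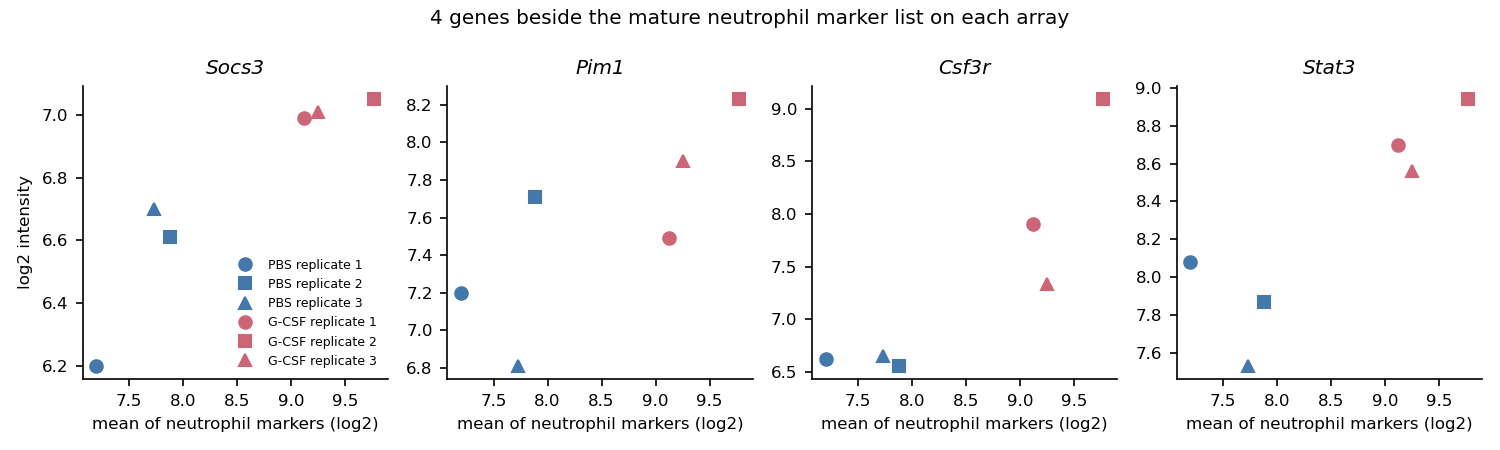
Log2 intensity of Socs3, Pim1, Csf3r and Stat3 (vertical axes) on each of 6 arrays against the mean log2 level of 20 mature neutrophil markers (horizontal axis), with PBS in blue, G-CSF in red and symbols for the replicate number. The G-CSF arrays lie to the right (9.12 to 9.77). Over them Socs3 spans 6.99 to 7.05, Pim1 7.49 to 8.23 and Stat3 8.56 to 8.94. Csf3r, itself on the marker list, spans 7.34 to 9.09.

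The SOCS box works through elongins B and C, the scaffold cullin 5 and a RING protein. Of 9 measured genes of these ligases and their cullin 2 relatives, 7 had negative differences, with a median of -0.24, and 0 passed. Leaving out G-CSF replicate 1 gave a median of -0.04, and leaving out G-CSF replicate 2 gave -0.45. The RING gene Rbx1 differed by -0.66 (SE 0.23, unadjusted p = 0.0224, adjusted p = 0.723), Cul2 by -0.58 (SE 0.27), the ubiquitin-like modifier Nedd8 by -0.24 (SE 0.23) and Cul5 by -0.15 (SE 0.27). Of 18 other SOCS-box proteins 15 had small positive differences (median 0.05, and 0.02 without G-CSF replicate 1 to 0.11 without G-CSF replicate 3). Among those with the smallest p were Asb3 (-0.32, SE 0.15), Asb7 (0.87, SE 0.48) and Spsb3 (0.19, SE 0.20), and 0 passed or had an unadjusted p under 0.05. Other inhibitors of the pathway were mixed, with 9 positive and 8 negative differences among 17 and none past the threshold by limma (1 at an unadjusted p under 0.05). Usp18, which restrains the type I interferon receptor, was at 5.91 to 6.17 with PBS and at 5.37 to 5.69 with G-CSF (difference -0.46, SE 0.16, adjusted p = 0.741). The phosphatase genes Ptprc (CD45) and Dusp22 differed by 0.44 (SE 0.20) and -0.69 (SE 0.31).

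Downstream, 15 of 20 measured STAT3 and STAT5 target genes had positive differences (median 0.17, and 0.07 without PBS replicate 3), against 50.3% of all genes. By limma 0 passed the threshold, and 2 had an unadjusted p under 0.05, against 6.04% of all genes. These were Lcn2 and Il4ra, and Il4ra was also counted among the receptors. Lcn2, an iron-sequestering protein of neutrophil granules and also a listed neutrophil marker, differed by 2.06 (SE 0.33, adjusted p = 0.177). Of the 20 targets 4 were separated upwards and 1 downwards, against 5.77% and 5.05% of all genes. The 1 separated downwards was the cyclin gene Ccnd2, at 8.30 to 9.39 with G-CSF against 9.52 to 9.77 with PBS (difference -0.69, SE 0.29, adjusted p = 0.832). The survival and growth genes Bcl2l1 (-0.23, SE 0.20), Mcl1 (0.10, SE 0.18) and Myc (0.03, SE 0.26) overlapped between groups. Among 13 measured genes comprising Pim3 and known PIM substrates, 6 differences were positive and 7 negative (median -0.06) and 0 passed. The stress kinase gene Map3k5 (ASK1) differed by 0.99 (SE 0.25, adjusted p = 0.413), the forkhead factor gene Foxo3 by -0.53 (SE 0.26) and the cell cycle phosphatase gene Cdc25c by 0.32 (SE 0.18).

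Interferon gamma response genes, whose induction SOCS1 is known to limit, had 9 negative and 4 positive differences among 13 (median -0.20). The median was -0.03 without G-CSF replicate 3 and -0.07 with quantile normalization again. By limma 0 passed, and 2 had an unadjusted p under 0.05. Those were the GTPase genes Iigp1, at 7.22 to 8.15 with PBS and 6.25 to 6.82 with G-CSF (difference -1.11, SE 0.27, adjusted p = 0.403), and Gbp3 (-0.61, SE 0.21). The immunoproteasome subunit gene Psmb9 differed by -0.48 (SE 0.28). Socs1 itself differed by -0.15.

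**Figure D5:**
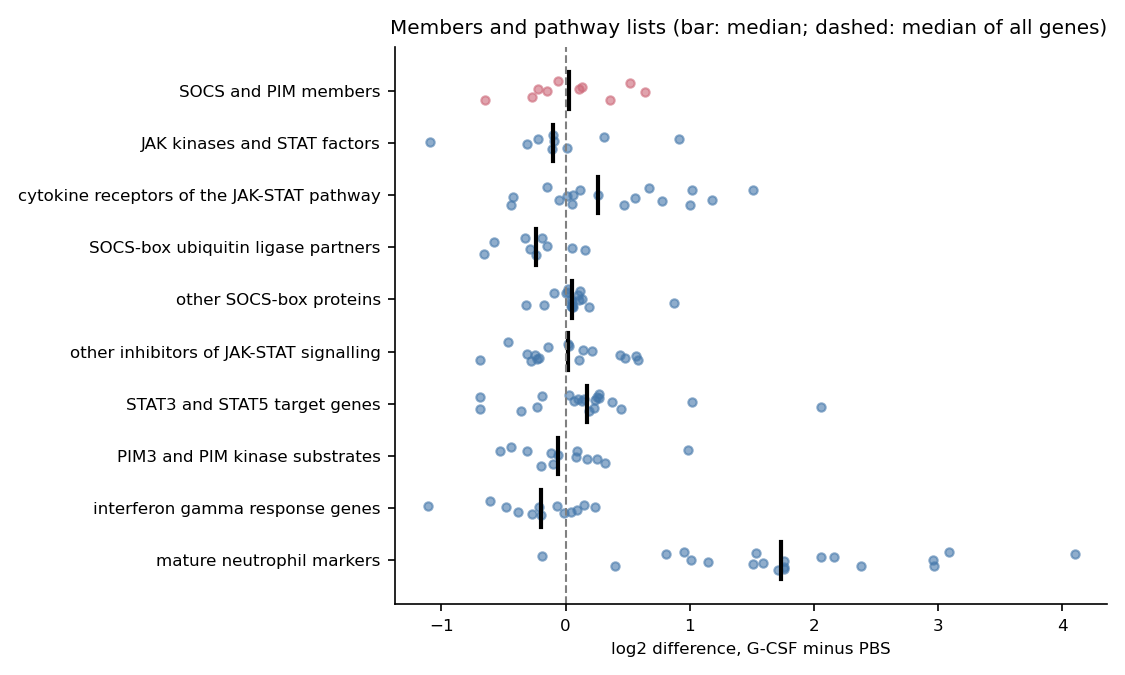
Log2 difference between G-CSF and PBS (horizontal axis) of each measured gene (points) in the members and in 9 gene lists, with the list's median (bar) and the median of all 14994 genes (dashed). The members centre on 0.03 and span -0.65 to 0.64, the receptors centre on 0.26, and the mature neutrophil markers centre on 1.73.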

How the data were processed

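The deposited values are intensities from 1-colour arrays (biotin label, RNA amplified with the NuGen Ovation kit), processed by the authors with RMA, per the submitters' processing notes. The sources used here do not name the software or the set of arrays normalized. Intensities ran from 2.7 to 19069, hence a linear scale, and log2 was taken. Platform annotation gave 21789 of 35554 probesets a single symbol, and symbols were updated through a RefSeq table (GRCm38.p6). The lowest 25% by mean (log2 up to 5.152) were left out, and each gene was represented by its brightest probeset on average. Groups were compared with limma 3.58.1 (R 4.3.3; lmFit, eBayes, two-sided, Benjamini-Hochberg, threshold 0.05) on all 14994 genes. RMA makes array distributions alike, so a shift of all genes would not be seen.

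Tested on simulated arrays of 14994 genes, the fit recovered 0.6% of true log2 changes of 0.5, 32.6% of those of 1 and 80.2% of those of 2. The noise was normal and independent, so these shares are not the power in the measured arrays. Members and lists were chosen with earlier results of these data known. Pathway genes named are up to 3 per list with the smallest p and 10 set by name, and nearest profiles were taken for 4 members. List counts and medians describe the lists, with no set test. A comparison of member proteins was planned and is not reported here. Alternatives were the filter, normalization, variance model, array weights, probeset rule, replicate number as a block and leaving out each array. Figures were drawn with matplotlib 3.10.9.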

Additional observations from a re-analysis of the deposited data

How the results depend on the processing

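With each of the 14 other settings 0 members passed, and the smallest adjusted p of a member was 0.516 (Pim1, replicate block). Genes called higher over the whole table numbered 12 with quantile normalization again and 2 with arrays centred on the median, against 4, and 0 to 6 with 1 array left out. With 1 array left out, the log2 difference ran from -0.36 to 0.39 for Cish, -0.18 to 0.07 for Pim2, -0.08 to 0.32 for Socs5 and -0.67 to 0.28 for Socs6, each changing sign. Over the 14 settings Socs3 ran from 0.25 (mean of its probesets) to 0.62, Pim1 from 0.42 to 0.87, Socs4 from -0.97 to -0.41, Socs7 from -0.61 to -0.09, Socs2 from 0.05 to 0.66 and Socs1 from -0.23 to -0.07, with no change of sign. The further probesets, an alternative chosen after seeing the data, gave -0.01 for Socs3 and 0.01 for Socs6, both against the reported sign. The members' median ran from -0.10 to 0.25, and that of the PIM substrate list from -0.18 to 0.08 and of the other inhibitors from -0.12 to 0.16. The medians of the other 6 pathway lists kept their sign but not their size. They ran from -0.16 to -0.04 for JAK kinases and STAT factors, 0.17 to 0.35 for receptors, -0.45 to -0.04 for ligase partners, 0.02 to 0.11 for other SOCS-box proteins, 0.07 to 0.20 for STAT targets and -0.25 to -0.03 for interferon gamma response genes. Deviations from the group mean of same-numbered arrays correlated at 0.29, 0.02 and 0.19 for replicates 1, 2 and 3. Each PBS array correlated best with its same-numbered G-CSF array, although G-CSF replicate 2 correlated best with PBS replicate 3 (0.1). The main fit did not pair the arrays, and whether the numbers are pairs was not settled. With the replicate block limma's adjusted p was 0.516 for Pim1 (difference 0.64, SE 0.21) and 0.542 for Socs3 (difference 0.52, SE 0.18), so the block changed no call of a member, and 5 genes were called higher against 4. The block lowered the SE from 0.52 to 0.17 for Socs6, 0.45 to 0.26 for Cish and 0.33 to 0.19 for Socs2. It raised the SE from 0.16 to 0.17 for Socs1 and from 0.23 to 0.25 for Socs5. Socs6 and Pim2 fell under the filter with the dimmest 50% of probesets left out and have no value there. The number of arrays limits the precision, and no measured background was available to say which dim probesets were above it.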
